A study of Homo sapiens with 84 samples.

Results

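AKAP12, ARID3B, and SPIRE1 are 3 genes whose transcripts were more abundant in Kyse30 cells 6 h after treatment with the extracellular domain of EpCAM (EpEX) than after its control protein, and they are followed here, together with ARID3A, over every Kyse30 condition and over FaDu replicates 3 and 4. The 4 genes were found by symbol among 58395 gene identifiers. AKAP12, ARID3B, and SPIRE1 were chosen because edgeR called 4 genes in EpEX against Fc in Kyse30 cells at 6 h, these 3 among them. That is 0.0261% of the 15350 genes tested. A gene is called here when its adjusted p is at most 0.05 and its log2FC, the log2 of the fold change, is above 0.5 in either direction. ARID3A was chosen by name, as the relative of ARID3B, and was not called in that comparison. The values of EpEX against Fc in Kyse30 cells at 6 h are therefore given as a description, without a test. The choice is not firm. With 1 library left out, 0 to 2 of the 4 genes were called in that comparison. The study, which used DESeq2 at the same thresholds, reported more genes for EpEX in these cells.

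AKAP12, also known as gravin, is a scaffold protein of the A-kinase anchoring family that holds protein kinases A and C near the plasma membrane and the cytoskeleton. ARID3B and ARID3A are paralogous transcription factors that bind DNA through an AT-rich interaction domain (ARID). SPIRE1 starts new actin filaments together with formins and thereby builds tracks on which RAB11 vesicles are carried by myosin V. EpCAM is an adhesion molecule of epithelial cells whose extracellular domain can be cut off and released. EGF binds its receptor EGFR and activates the ERK kinases, which induce growth factor, phosphatase, and transcription factor genes within minutes to hours.

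The data comprised 3′ RNA-seq libraries, in which reads come from the 3′ end of each transcript, from Kyse30 cells (43 libraries), a line grown from an esophageal squamous carcinoma, and from FaDu cells (20 of 41 libraries), a line grown from a carcinoma of the pharynx. Each line stands for 1 tumour. All cells were kept without serum for 24 h before and throughout treatment. Groups were untreated cells (0, 6, and 72 h) and cells treated for 6 or 72 h with recombinant immunoglobulin Fc, with EpEX fused to Fc (EpEX), with EGFlow (1.8 nM EGF), with EGFhigh (9 nM EGF), or with EGFhigh and EpEX together (EGFhigh + EpEX). Untreated cells served as control of EGF, and Fc served as control of EpEX. Kyse30 groups had 3 or 4 libraries. FaDu groups of replicates 3 and 4 had 2 libraries, except for 6 groups with 1, which are given as values without a test. Whether replicates were separate cultures is not stated, so p-values measure the spread between these libraries, which may be technical.

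The shallowest Kyse30 library held 1944948 counts on genes and the deepest 11759799, with a median of 6304338. The 20 FaDu libraries held between 6217938 and 12442349 counts, with a median of 9259762. A count of 3, taken as the smallest readable amount, was 0.255 to 1.54 CPM (counts scaled to a common library size) in Kyse30 and 0.241 to 0.482 CPM in FaDu. All values of the 4 genes lay above it, with at least 35 counts of AKAP12, 40 of ARID3B, 159 of SPIRE1, and 191 of ARID3A in any Kyse30 library. In FaDu libraries the lowest counts were 246, 66, 128, and 24. These limits cover counting error only. EGFR had a median of 2471 CPM in Kyse30 and 549 CPM in FaDu, and EPCAM had a median of 213 and 378 CPM. Of the squamous keratins, KRT5, KRT14, and KRT17 had lower medians in Kyse30 (2.12, 0.707, and 11.8 CPM) than in FaDu (205, 11.6, and 912 CPM), with up to 34.7 CPM of KRT14 in a Kyse30 library, whereas KRT6A had 29.6 and 24.6 CPM. TP63 had a median of 19.2 and 31.3 CPM and the epithelial cadherin CDH1 189 and 43.6 CPM. The endothelial and immune markers PECAM1, PTPRC, CD3E, and LYZ had a median of 0 in both lines, and the endothelial marker CDH5 had 1.805 and 4.46 CPM. Of the fibroblast markers, COL1A1 had 14.1 and 8.66 CPM, COL1A2 5.17 and 0.371 CPM, COL3A1 0 and 1.41 CPM, and PDGFRB 0.235 and 0 CPM. The part of other cell types in the results was not tested.

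AKAP12 (ENSG00000131016) lies on chr6:151239999-151358557 of GRCh38, plus strand, in GENCODE release 29. ARID3B (ENSG00000179361) lies on chr15:74541177-74598131, plus strand, SPIRE1 (ENSG00000134278) on chr18:12446512-12658134, minus strand, and ARID3A (ENSG00000116017) on chr19:925781-975934, plus strand. An antisense gene, AP001029.2, reaches the 3′ end of SPIRE1, and the antisense gene AC005379.1 overlaps ARID3A. Whether the counting used strand is not stated in the sources used here, so reads of these antisense genes cannot be told apart from those of SPIRE1 and ARID3A.

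AKAP12 showed the largest fold change of the 4 genes between a treatment and its control (log2FC of 3.78, under EpEX in FaDu), and RefSeq (GRCh38.p14) lists 3 start sites for it, so the 250 bases before each are shown 5′ to 3′, with a CArG box, the site of serum response factor, in capitals. Window 1 is chr6:151239717-151239966, window 2 is chr6:151325281-151325530, and window 3 is chr6:151341456-151341705, all on the plus strand.
AKAP12 window 1: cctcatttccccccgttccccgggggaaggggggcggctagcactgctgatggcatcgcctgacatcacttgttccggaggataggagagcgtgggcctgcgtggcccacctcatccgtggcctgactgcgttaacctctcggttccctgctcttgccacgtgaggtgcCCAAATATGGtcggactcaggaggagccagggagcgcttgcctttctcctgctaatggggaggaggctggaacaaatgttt
AKAP12 window 2: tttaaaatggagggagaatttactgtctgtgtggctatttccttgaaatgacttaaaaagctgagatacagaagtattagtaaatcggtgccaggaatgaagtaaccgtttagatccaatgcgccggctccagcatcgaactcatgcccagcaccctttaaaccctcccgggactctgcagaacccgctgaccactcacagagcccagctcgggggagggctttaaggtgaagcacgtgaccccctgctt
AKAP12 window 3: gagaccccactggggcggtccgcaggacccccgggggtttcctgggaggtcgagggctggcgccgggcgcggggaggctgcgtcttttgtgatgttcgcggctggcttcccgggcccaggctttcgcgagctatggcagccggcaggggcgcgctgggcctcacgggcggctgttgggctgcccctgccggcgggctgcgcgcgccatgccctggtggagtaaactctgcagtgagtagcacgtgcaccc
Windows of 300 bases, which also hold 50 bases after the start site, were searched on both strands for the CArG box, the AP-1 site TGANTCA, the cAMP response element TGACGTCA, the EGR site GCGTGGGCG, and the ETS core ACCGGAAG. The 3 AKAP12 windows held 1 match, the CArG box CCAAATATGG of window 1 at -81 to -72 from the start site, and the 2 SPIRE1 windows held none. No window was available for ARID3B or ARID3A, so these genes were not searched. Of 35116 windows of the same length, 1.29% held a CArG box, 7.71% the AP-1 site, 1.85% the cAMP response element, 0.795% the EGR site, and 2.17% the ETS core. A match describes these letters only, and reads from the 3′ end do not show which start site was used.

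In Kyse30 cells at 6 h, AKAP12, ARID3B, and SPIRE1 were called as higher under both EGF doses than in untreated cells, with the largest difference for AKAP12, while ARID3A was not called. AKAP12 was 14.4, 18.3, and 32.7 CPM in untreated cells, 63.9, 74.4, 94.4, and 212 CPM under EGFlow, and 64.4, 74.8, 97.1, and 206 CPM under EGFhigh. Every EGF library lay above every untreated library. The log2FC was 2.35 for EGFlow (SE 0.43, adjusted p = 0.0049), a 5.08-fold increase (95% interval 2.79 to 9.28), and 2.34 for EGFhigh (SE 0.43, adjusted p = 0.0018), a 5.07-fold increase (2.78 to 9.25). Replicate 4 was the highest library of each of these 3 groups. Without replicate 4 of the treated group, the log2FC was 1.83 for EGFlow (adjusted p = 0.028) and 1.85 for EGFhigh (adjusted p = 0.010). Over 14 alternatives, the adjusted p of AKAP12 was at most 0.0385 for EGFlow and 0.0217 for EGFhigh.

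ARID3B was 19.1, 20.4, and 20.7 CPM in untreated cells at 6 h, 28.3, 41.2, 55.2, and 57.6 CPM under EGFlow, and 39.0, 51.3, 56.5, and 61.2 CPM under EGFhigh. Untreated libraries were close to each other and lay below all EGF libraries. The log2FC was 1.18 for EGFlow (SE 0.31, adjusted p = 0.041) and 1.37 for EGFhigh (SE 0.32, adjusted p = 0.012). The call under EGFlow was lost in 6 of the 7 fits with 1 library left out (log2FC of 1.06 to 1.36 over the 7 fits, adjusted p up to 0.194 without untreated replicate 4), and kept without EGFlow replicate 2. Under EGFhigh it was lost without untreated replicate 1 (adjusted p = 0.0514) or replicate 4 (adjusted p = 0.0791, the highest over 14 alternatives).

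SPIRE1 was 57.0, 59.6, and 63.8 CPM in untreated cells at 6 h, 95.7, 115, 127, and 152 CPM under EGFlow, and 77.0, 108, 130, and 134 CPM under EGFhigh. The groups did not overlap. The log2FC was 1.02 for EGFlow (SE 0.20, adjusted p = 0.0053) and 0.90 for EGFhigh (SE 0.20, adjusted p = 0.0077). Both calls were lost without untreated replicate 4, with an adjusted p of 0.0545 and 0.0639, the highest over 14 alternatives each.

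ARID3A was 81.2, 104, and 129 CPM in untreated cells at 6 h, 61.7, 74.0, 77.3, and 87.0 CPM under EGFlow, and 62.3, 79.2, 84.6, and 100 CPM under EGFhigh. These ranges overlapped. Its log2FC was -0.48 for EGFlow (95% interval -0.95 to -0.01, adjusted p = 0.35) and -0.36 for EGFhigh (-0.83 to 0.11, adjusted p = 0.51). Hence 3 of the 4 genes were called as higher under each dose, where 0.814% of the 15350 genes tested were called as higher and 1.5% in either direction for EGFlow, and 1.34% and 2.55% for EGFhigh. Every treated library lay above every untreated library for 6.68% of all genes under EGFlow and 7.22% under EGFhigh.

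The doses were compared directly. EGFhigh differed from EGFlow at 6 h by a log2FC of -0.00 for AKAP12 (95% interval -0.74 to 0.73), 0.19 for ARID3B (-0.38 to 0.76), -0.12 for SPIRE1 (-0.48 to 0.24), and 0.12 for ARID3A (-0.32 to 0.56). None of the 4 was called, as was no gene in edgeR (435 genes had an unadjusted p below 0.05).

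**Figure D1:**
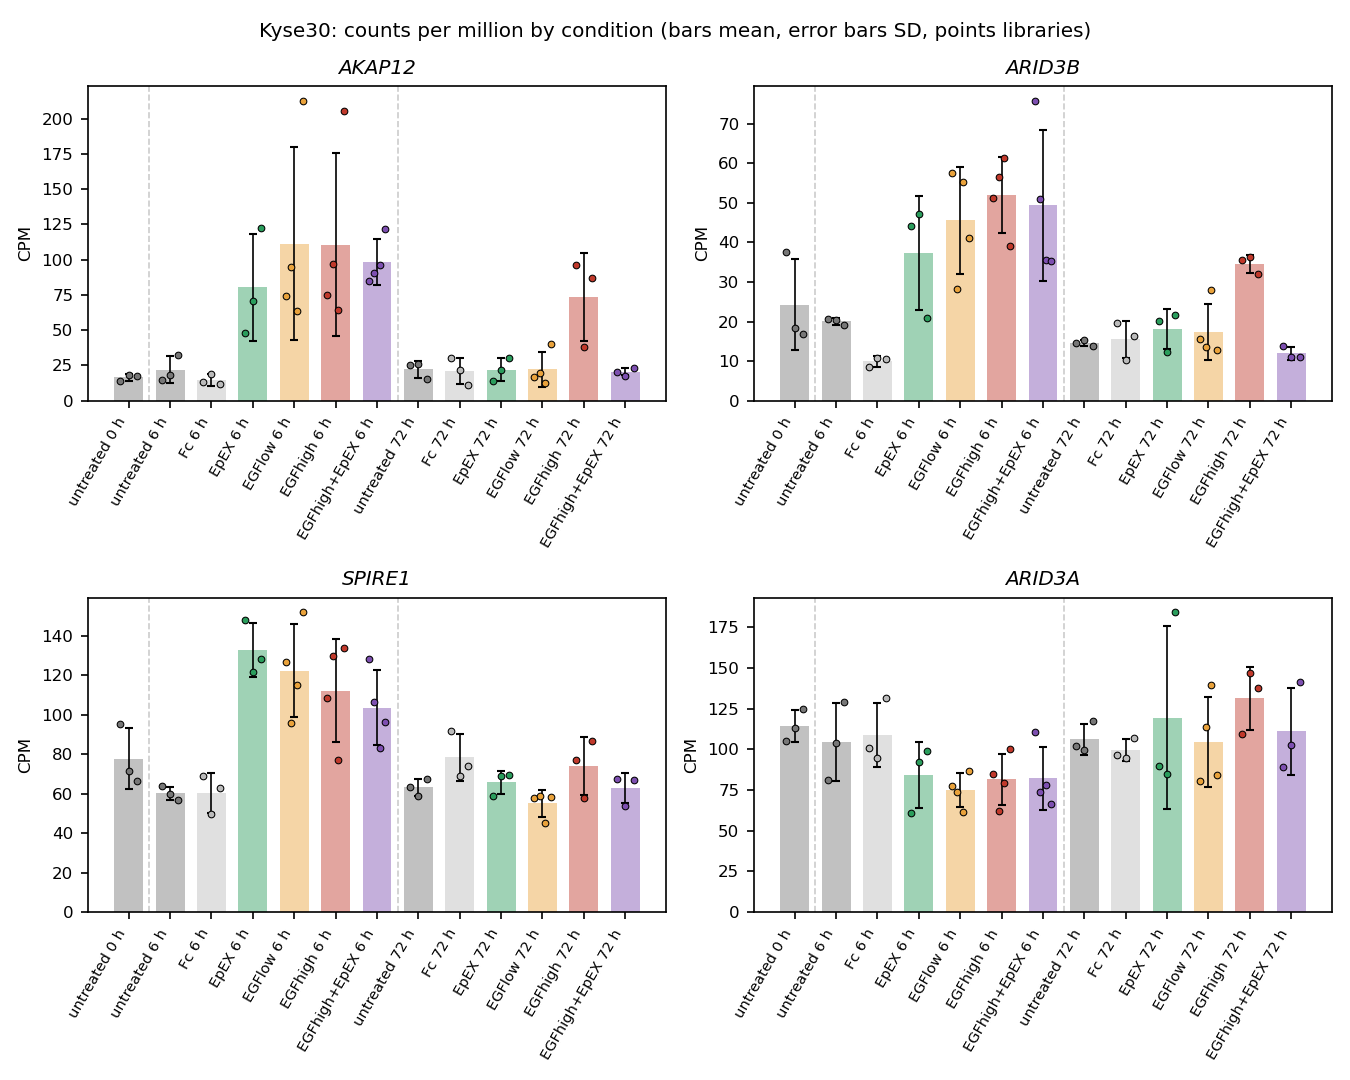
CPM of AKAP12, ARID3B, SPIRE1, and ARID3A in Kyse30 cells, by condition on the horizontal axis. Bars are means, error bars are SD, and points are libraries (n = 3 or 4). AKAP12 stands at 63.9 CPM or more in the EGF libraries at 6 h and at 32.7 CPM or less in the untreated and Fc libraries of that time.

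EpEX at 6 h, whose comparison with Fc chose 3 of the genes, is given as levels. AKAP12 was 11.5, 13.3, and 19.2 CPM under Fc and 47.9, 70.8, and 122 CPM under EpEX, a log2FC of 2.44. ARID3B was 8.38, 10.6, and 10.7 CPM under Fc and 20.8, 44.2, and 47.2 CPM under EpEX, a log2FC of 1.94. The lowest EpEX value of ARID3B rested on 40 counts in replicate 4, the shallowest Kyse30 library. SPIRE1 was 49.5, 62.7, and 69.0 CPM under Fc and 121, 128, and 148 CPM under EpEX, a log2FC of 1.13. Every EpEX library lay above every Fc library for these 3 genes, as for 6.79% of all genes. ARID3A, which was not chosen by this comparison, was 94.7, 101, and 131 CPM under Fc and 60.9, 92.2, and 99.2 CPM under EpEX, a log2FC of -0.38. Of the chosen genes SPIRE1 had the smallest log2FC (1.13), and that all 3 lie beyond the limit of 0.5 is set by the choice. ARID3A (-0.38), which was chosen by name, did not reach that limit.

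ARID3B differed in level between both kinds of control libraries at 6 h. It was 8.38 to 10.7 CPM under Fc against 19.1 to 20.7 CPM in untreated cells, so the Fc libraries lay wholly below, as for 4.46% of all genes, with a log2FC of -1.02. No gene was called in Fc against untreated cells by edgeR (435 had an unadjusted p below 0.05). These are the Fc libraries of the comparison that chose the gene. With untreated cells in place of Fc, the log2FC of EpEX was 1.86 for AKAP12, 0.92 for ARID3B, and 1.14 for SPIRE1, and that of ARID3B was thus 1.94 or 0.92 by the control used. EpEX libraries lay wholly above the untreated libraries for all 3 genes, as for 7.28% of all genes, though for ARID3B by 20.8 against 20.7 CPM only.

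EGFhigh + EpEX at 6 h was compared with untreated cells, which share no library with the choice of the genes. AKAP12 was 85.1, 90.3, 95.8, and 121 CPM, ARID3B 35.2, 35.6, 50.9, and 75.8 CPM, and SPIRE1 83.2, 96.4, 106, and 128 CPM under EGFhigh + EpEX. All 3 genes lay wholly above the untreated libraries, as for 5.56% of all genes. The log2FC was 2.17 for AKAP12 (SE 0.43, adjusted p = 0.0050), 1.30 for ARID3B (SE 0.32, adjusted p = 0.024), and 0.78 for SPIRE1 (SE 0.20, adjusted p = 0.029), while ARID3A had -0.35 (95% interval -0.82 to 0.12). Of all genes tested, 0.958% were called as higher and 1.41% in either direction. Of these calls, that of AKAP12 was lost without untreated replicate 1 (adjusted p = 0.0788, the highest over 13 alternatives). Those of ARID3B and SPIRE1 were lost in 4 and 5 of the 7 fits with 1 library left out (without EGFhigh + EpEX replicate 1 or any 1 untreated library, and for SPIRE1 also without EGFhigh + EpEX replicate 2), with an adjusted p up to 0.126 and 0.151 over 13 alternatives. Against Fc, whose libraries are shared with the choice of the genes, the log2FC was 2.75, 2.32, 0.78, and -0.41 for AKAP12, ARID3B, SPIRE1, and ARID3A.

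Adding EpEX to EGFhigh did not give a called difference at 6 h. EGFhigh + EpEX differed from EGFhigh by a log2FC of -0.17 for AKAP12 (95% interval -0.91 to 0.56), -0.08 for ARID3B (-0.64 to 0.49), and -0.12 for SPIRE1 (-0.48 to 0.24). No gene was called in edgeR, and 577 had an unadjusted p below 0.05. In order of mean level at 6 h, AKAP12 was 111 ± 68.6 CPM under EGFlow (SD, n = 4), 110 ± 64.8 under EGFhigh (n = 4), 98.2 ± 16.1 under EGFhigh + EpEX (n = 4), 80.2 ± 38.0 under EpEX (n = 3), 21.8 ± 9.62 in untreated cells (n = 3), and 14.7 ± 3.99 under Fc (n = 3). The order of means for ARID3B was EGFhigh (52.0 ± 9.58 CPM), EGFhigh + EpEX (49.4 ± 19.0), EGFlow (45.6 ± 13.6), EpEX (37.4 ± 14.5), untreated (20.05 ± 0.85), and Fc (9.91 ± 1.32), and for SPIRE1 it was EpEX (133 ± 13.6 CPM), EGFlow (122 ± 23.4), EGFhigh (112 ± 25.9), EGFhigh + EpEX (104 ± 19.0), Fc (60.4 ± 9.98), and untreated (60.1 ± 3.44). For AKAP12, neighbours among the 4 treatments overlapped, as did untreated cells and Fc, and the gap lay between EpEX and untreated cells. The places of EpEX and Fc in these orders are partly set by the choice of the genes, which used those libraries.

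At 72 h in Kyse30 cells, AKAP12 and ARID3B were called as higher under EGFhigh and not under EGFlow, EpEX, or EGFhigh + EpEX, and SPIRE1 and ARID3A were called under none of these. AKAP12 was 15.3, 25.3, and 25.8 CPM in untreated cells and 38.0, 87.1, and 96.0 CPM under EGFhigh. ARID3B was 13.7, 14.6, and 15.3 CPM in untreated cells and 32.0, 35.6, and 36.2 CPM under EGFhigh. Every EGFhigh library lay above every untreated one for both genes, as for 10.9% of all genes. The log2FC was 1.73 for AKAP12 (SE 0.44, adjusted p = 0.010) and 1.25 for ARID3B (SE 0.34, adjusted p = 0.016). SPIRE1 was 58.6, 63.5, and 67.3 CPM in untreated cells and 57.9, 77.1, and 86.8 CPM under EGFhigh, a log2FC of 0.23 (95% interval -0.19 to 0.65, adjusted p = 0.60). ARID3A was 99.4, 102, and 117 CPM in untreated cells and 110, 137, and 147 CPM under EGFhigh, a log2FC of 0.31 (-0.20 to 0.81, adjusted p = 0.54).

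Thus 2 of the 4 genes were called as higher under EGFhigh at 72 h, where 3.04% of all genes were called as higher and 6.2% in either direction. The call of AKAP12 was lost without EGFhigh replicate 1 (adjusted p = 0.0562) or untreated replicate 3 (adjusted p = 0.0759, the highest over 13 alternatives). The call of ARID3B was lost without untreated replicate 1, 2, or 3 (adjusted p of 0.055, 0.0578, and 0.0688, the last the highest over 13 alternatives).

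EGFlow gave no called difference from untreated cells at 72 h, for these or any other genes in edgeR (439 genes had an unadjusted p below 0.05). AKAP12 was 12.4, 16.5, 19.8, and 40.0 CPM under EGFlow, ARID3B 12.7, 13.5, 15.6, and 27.9 CPM, and SPIRE1 44.9, 58.0, 58.4, and 58.8 CPM. Against untreated cells, the log2FC was 0.01 for AKAP12 (95% interval -0.81 to 0.84), 0.24 for ARID3B (-0.40 to 0.88), and -0.20 for SPIRE1 (-0.59 to 0.20). EGFhigh exceeded EGFlow at 72 h by a log2FC of 1.72 for AKAP12 (SE 0.40, adjusted p = 0.0068), with 1 EGFlow library (40.0 CPM) above 1 EGFhigh library (38.0 CPM). For ARID3B the log2FC of EGFhigh against EGFlow was 1.01 (SE 0.31, adjusted p = 0.053) without overlap, as for 6.22% of all genes, and for SPIRE1 it was 0.42 (SE 0.19, adjusted p = 0.26). Of all genes, 2.03% were called as higher under EGFhigh and 3.73% in either direction. ARID3B passed under 4 of 6 other settings, with an adjusted p of 0.0287 with DESeq2, and its adjusted p ranged from 0.0108 to 0.173 over 13 alternatives.

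The change of the EGF response from 6 to 72 h was tested directly. For EGFlow, the log2FC at 72 h minus that at 6 h was -2.34 for AKAP12 (SE 0.58, adjusted p = 0.17), -1.22 for SPIRE1 (SE 0.27, adjusted p = 0.17), and -0.94 for ARID3B (SE 0.44, adjusted p = 0.61). In the main edgeR fit no gene was called (1229 with an unadjusted p below 0.05). DESeq2 called 47 genes, AKAP12 (adjusted p = 0.026) and SPIRE1 (adjusted p = 0.015) among them. EdgeR with a replicate block also called AKAP12 and SPIRE1, and edgeR without a filter called AKAP12. Over 20 alternatives, the adjusted p ranged from 1.4e-06 to 0.431 for AKAP12 and from 0.0148 to 0.431 for SPIRE1. For EGFhigh, the difference was -0.61 for AKAP12 (SE 0.59), -0.12 for ARID3B (SE 0.45), and -0.67 for SPIRE1 (SE 0.28, adjusted p = 0.27), and none was called, against 1.01% of all genes.

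EpEX, alone or with EGFhigh, gave no called difference from Fc at 72 h. AKAP12 was 11.3, 21.8, and 30.1 CPM under Fc, 14.0, 21.5, and 30.0 CPM under EpEX, and 17.8, 20.6, and 22.9 CPM under EGFhigh + EpEX. ARID3B was 10.3, 16.4, and 19.7 CPM under Fc, 12.2, 20.2, and 21.6 CPM under EpEX, and 11.0, 11.2, and 13.9 CPM under EGFhigh + EpEX. SPIRE1 was 69.0, 74.1, and 91.8 CPM under Fc, 58.9, 68.9, and 69.4 CPM under EpEX, and 53.8, 66.6, and 67.4 CPM under EGFhigh + EpEX. The EpEX and Fc libraries overlapped for all 3 genes, and EGFhigh + EpEX lay wholly below Fc for SPIRE1, as for 4.03% of all genes. EpEX differed from Fc by a log2FC of 0.03 for AKAP12 (95% interval -0.86 to 0.91), 0.20 for ARID3B (-0.48 to 0.88), and -0.25 for SPIRE1 (-0.67 to 0.16), and no gene was called in edgeR (554 with an unadjusted p below 0.05, and 2 called by DESeq2).

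The EGFhigh + EpEX libraries of AKAP12 and ARID3B all lay below the EGFhigh libraries at 72 h, as for 9.19% of all genes. The log2FC of EGFhigh + EpEX against EGFhigh was -1.85 for AKAP12 (SE 0.44, adjusted p = 0.0094), which is 3.60-fold lower, and -1.52 for ARID3B (SE 0.34, adjusted p = 0.0052), which is 2.87-fold lower. SPIRE1 had -0.24 (95% interval -0.66 to 0.18) and ARID3A had -0.24 (-0.74 to 0.26). Hence 2 of the 4 genes were called as lower, where 1.72% of all genes were called as lower and 3.58% in either direction. The call of AKAP12 was lost without EGFhigh replicate 1 (adjusted p = 0.0579) or EGFhigh + EpEX replicate 2 (adjusted p = 0.0796, the highest over 12 alternatives), while that of ARID3B was kept in each of 12 alternatives (adjusted p of at most 0.0487). Whether the effect of adding EpEX differed between 6 and 72 h was not tested.

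**Figure D2:**
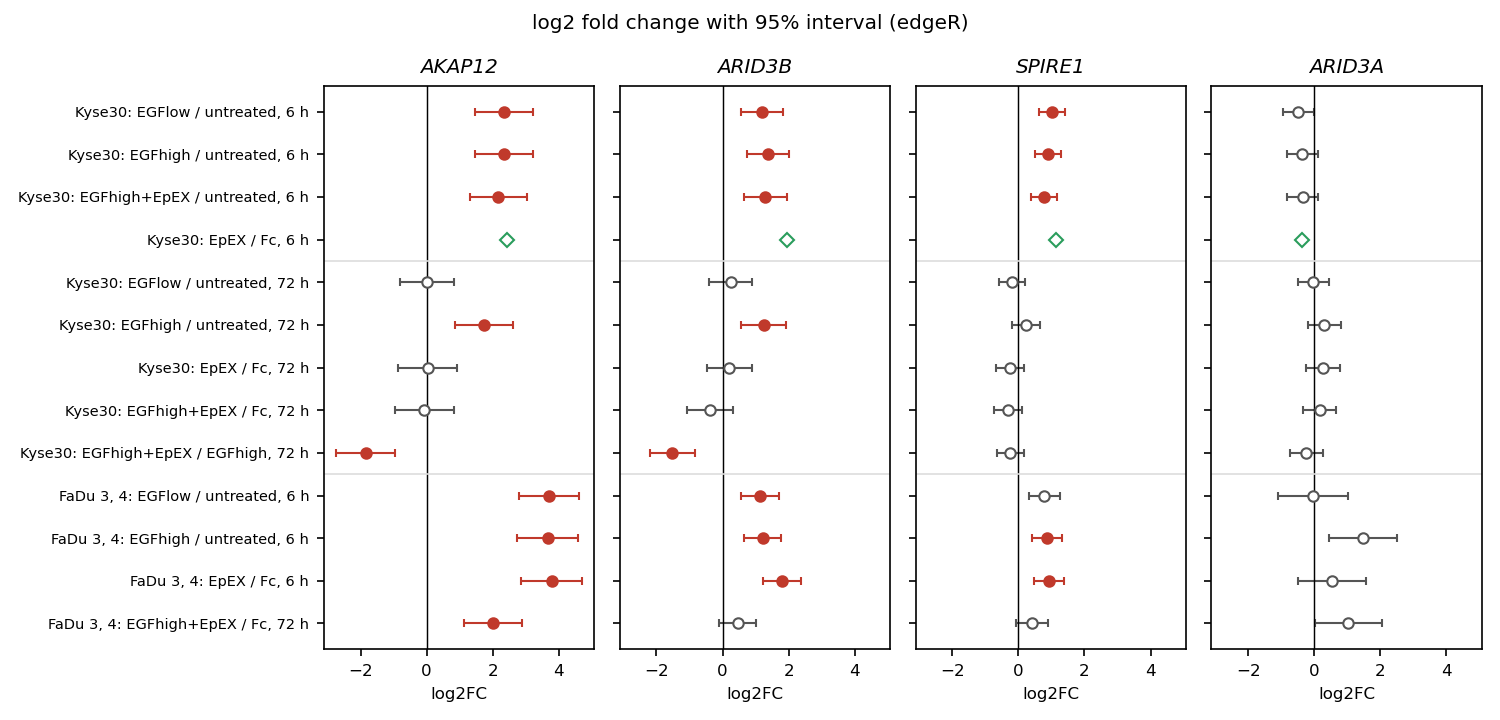
Log2FC of the 4 genes (columns) in the comparisons named on the vertical axis, with 95% intervals as lines. Filled red circles were called, open circles were not, and green diamonds mark EpEX against Fc in Kyse30 at 6 h, which chose the genes and carries no test. AKAP12 runs from -1.85 for EGFhigh + EpEX against EGFhigh at 72 h in Kyse30 to 3.78 for EpEX in FaDu.

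Untreated Kyse30 cells were also compared over time. AKAP12 was 16.5 ± 2.59 CPM in untreated cells at 0 h (SD, n = 3), 21.8 ± 9.62 at 6 h, and 22.1 ± 5.89 at 72 h. ARID3B was 24.2 ± 11.5 CPM at 0 h, with 37.5 CPM in replicate 1 and 18.2 and 16.9 CPM in the others, 20.05 ± 0.85 at 6 h, and 14.5 ± 0.79 at 72 h. SPIRE1 was 77.7 ± 15.5, 60.1 ± 3.44, and 63.1 ± 4.36 CPM, and ARID3A 114 ± 9.68, 105 ± 23.8, and 106 ± 9.65 CPM. None of the 4 genes was called between 0 and 6 h, where no gene was (355 with an unadjusted p below 0.05), or between 6 and 72 h, where 1.55% of all genes were.

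FaDu replicates 1 and 2 stand apart from replicates 3 and 4 and are left out of the main FaDu comparisons. AKAP12 was 15.9 and 3.07 CPM in the untreated 6 h libraries of replicates 1 and 2 and 89.1 and 46.0 CPM in those of replicates 3 and 4. Under EGFhigh at 6 h it was 6.72 and 2.48 CPM in replicates 1 and 2 and 1133 and 573 CPM in replicates 3 and 4. Of replicates 1 and 2, only replicate 2 had an EpEX library at 6 h. It held 3.64 CPM of AKAP12, against 2.45 and 9.69 CPM under Fc in replicates 1 and 2. ARID3B was 11.8 CPM there, against 3.06 and 10.5 CPM under Fc, and SPIRE1 10.5 CPM, against 39.5 and 50.9 CPM. With all 41 FaDu libraries in the fit, no gene was called in any of the FaDu comparisons, and the log2FC of AKAP12 at 6 h was 3.94 for EGFlow, 3.47 for EGFhigh, and 4.09 for EpEX, with adjusted p between 0.751 and 1. Over 10 alternatives, of which that fit is 1, SPIRE1 at 6 h fell as low as a log2FC of 0.16 for EGFlow, 0.46 for EGFhigh, and 0.31 for EpEX. The lowest values of ARID3B were 1.07, 0.98, and 1.61.

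In FaDu cells of replicates 3 and 4 at 6 h, AKAP12 rose 12.6-fold to 13.8-fold under EGFlow, EGFhigh, and EpEX, ARID3B rose 2.21-fold to 3.48-fold, and SPIRE1 rose 1.83-fold under EGFhigh and 1.90-fold under EpEX. AKAP12 was 46.0 and 89.1 CPM in untreated cells, 55.0 and 87.0 CPM under Fc, 627 and 1125 CPM under EGFlow, 573 and 1133 CPM under EGFhigh, and 675 and 1279 CPM under EpEX. Replicate 3 was the higher library in each of these 5 groups, and treated and control libraries were far apart. The log2FC was 3.70 for EGFlow (SE 0.44, adjusted p = 5.3e-05), 3.66 for EGFhigh (SE 0.43, adjusted p = 6.5e-05), and 3.78 for EpEX against Fc (SE 0.44, adjusted p = 3.8e-05). The calls of AKAP12 at 6 h were kept in every fit with 1 library left out, with a log2FC between 3.07 and 4.25.

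ARID3B was 9.47 and 10.4 CPM in untreated FaDu cells, 6.89 and 8.21 CPM under Fc, 21.6 and 22.4 CPM under EGFlow, 20.4 and 25.9 CPM under EGFhigh, and 23.6 and 28.8 CPM under EpEX. The log2FC was 1.14 for EGFlow (SE 0.27, adjusted p = 0.023), 1.21 for EGFhigh (SE 0.27, adjusted p = 0.017), and 1.798 for EpEX (SE 0.28, adjusted p = 0.00073). The EpEX comparison in FaDu used none of the libraries that chose the genes. The call for EpEX was kept in every fit with 1 library left out, that for EGFlow was lost in each of the 4 fits (adjusted p of 0.087 without EGFlow replicate 3 up to 0.155 without untreated replicate 4), and that for EGFhigh was lost without EGFhigh replicate 4 or untreated replicate 3 or 4 (adjusted p of 0.125 to 0.162).

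SPIRE1 was 33.4 and 35.6 CPM in untreated FaDu cells, 32.1 and 38.1 CPM under Fc, 49.5 and 69.3 CPM under EGFlow, 62.8 and 63.6 CPM under EGFhigh, and 59.3 and 73.6 CPM under EpEX. All treated libraries lay above the controls. The log2FC was 0.78 for EGFlow (SE 0.22, adjusted p = 0.060, and 0.034 with DESeq2), 0.87 for EGFhigh (SE 0.22, adjusted p = 0.035), and 0.92 for EpEX (SE 0.22, adjusted p = 0.023). The call for EGFhigh was lost in each of the 4 fits with 1 library left out (adjusted p of 0.119 to 0.27), and that for EpEX in 3 of 4, without EpEX replicate 4, Fc replicate 3, or Fc replicate 4 (adjusted p of 0.0768 to 0.199).

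ARID3A was low in FaDu, at 3.02 and 5.57 CPM in untreated cells, 2.98 and 6.48 CPM under Fc, 2.63 and 5.76 CPM under EGFlow, 9.23 and 14.5 CPM under EGFhigh, and 6.11 and 7.86 CPM under EpEX. EGFhigh libraries lay above the untreated ones, with a log2FC of 1.47 (SE 0.49, adjusted p = 0.14), and EpEX had 0.55 (SE 0.49, adjusted p = 0.70). Of the 4 genes, 2 were called as higher under EGFlow, 3 under EGFhigh, and 3 under EpEX, where 2.55%, 2.29%, and 2.45% of the 16022 genes tested were called as higher and 3.45%, 3.06%, and 3.5% in either direction. With 2 libraries a group, 20.7%, 20.3%, and 19.6% of all genes lay wholly above the control.

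**Figure D3:**
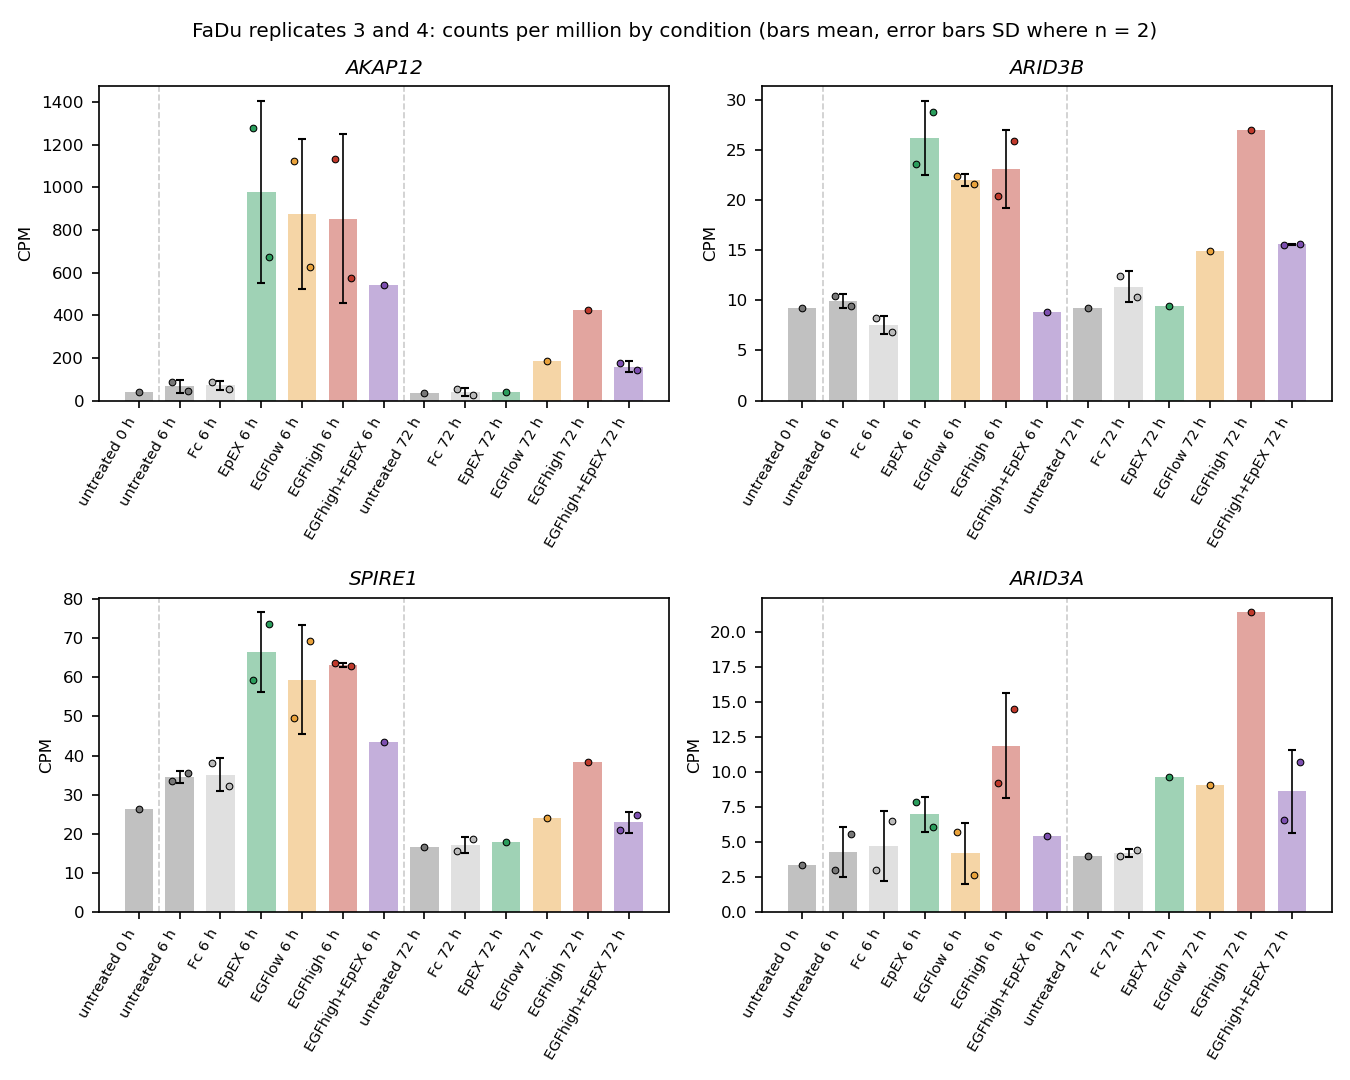
CPM of the 4 genes in FaDu replicates 3 and 4, by condition on the horizontal axis. Bars are means, error bars are SD where there were 2 libraries, and points are libraries. AKAP12 under EGF or EpEX at 6 h lies at 573 CPM or more, against 89.1 CPM or less in untreated and Fc libraries of that time.

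The groups of FaDu with 1 library are given as values. These libraries are of replicate 3 for EGFhigh + EpEX at 6 h, EGFlow at 72 h, and untreated cells at 0 h, and of replicate 4 for the others, and AKAP12 was the higher in replicate 3 in each group at 6 h that had both. Under EGFhigh + EpEX at 6 h, AKAP12 was 544, ARID3B 8.85, SPIRE1 43.5, and ARID3A 5.47 CPM. AKAP12 was thus above the controls in that library, while ARID3B lay between the Fc and untreated values. At 72 h, AKAP12 was 426 CPM under EGFhigh, 186 CPM under EGFlow, 39.4 CPM under EpEX, and 34.1 CPM in untreated cells, and it was 40.1 CPM in untreated cells at 0 h. ARID3B at 72 h was 27.0, 14.9, 9.39, and 9.26 CPM in the same order, and SPIRE1 was 38.2, 24.0, 17.9, and 16.6 CPM. For all 3 genes, EGFhigh was the highest and untreated the lowest of these 72 h libraries, of which the EGFlow library is of another replicate than the rest.

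EGFhigh + EpEX at 72 h in FaDu had 2 libraries. AKAP12 was 141 and 177 CPM against 26.7 and 52.7 CPM under Fc, a log2FC of 2.002 (SE 0.41, adjusted p = 0.025), and was the only one of the 4 genes called, where 0.624% of all genes were called as higher and 0.818% in either direction. The call was lost in each of the 4 fits with 1 library left out (log2FC of 1.59 to 2.58, adjusted p from 0.0526 without Fc replicate 3 to 0.371 without Fc replicate 4) and with a filter at a mean of 5 CPM (adjusted p = 0.0547). ARID3B was 15.6 CPM in both libraries against 10.3 and 12.4 CPM under Fc, a log2FC of 0.46 (SE 0.27, adjusted p = 0.88), and SPIRE1 was 21.1 and 24.8 CPM against 15.7 and 18.6 CPM.

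Before treatment effects, FaDu cells of replicates 3 and 4 differed from Kyse30 cells in all 4 genes. In a fit over both lines, untreated FaDu cells at 6 h had more AKAP12 than untreated Kyse30 cells (log2FC of 1.66, SE 0.47, adjusted p = 0.0060) and less ARID3B (-0.98, SE 0.37, adjusted p = 0.047), SPIRE1 (-0.77, SE 0.24, adjusted p = 0.015), and ARID3A (-4.57, SE 0.39, adjusted p = 6.9e-14, 23.8-fold lower). Between the lines 22.4% of all genes were called, and line and library set cannot be told apart. FaDu replicates 1 and 2 were not in this fit. Their untreated 6 h libraries had 15.9 and 3.07 CPM of AKAP12, not above the 14.4 to 32.7 CPM of Kyse30. They had 38.2 and 94.9 CPM of SPIRE1, on both sides of the Kyse30 values (57.0 to 63.8 CPM). ARID3A was 16.8 and 11.2 CPM and ARID3B 6.49 and 2.10 CPM, below Kyse30. The response to EGF was not called as different between the lines for any of the 4 genes. The log2FC in FaDu minus that in Kyse30 was 1.32 for AKAP12 under EGFlow (95% interval 0.03 to 2.61, adjusted p = 0.93) and 1.27 under EGFhigh (-0.02 to 2.57, adjusted p = 1), and 1.79 for ARID3A under EGFhigh (0.89 to 2.70, adjusted p = 0.18, and 0.037 with DESeq2). Across all genes, 0.112% were called for EGFlow and 0.0611% for EGFhigh.

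The genes were then set beside the families they belong to, from lists chosen with earlier results known. Of the ARID domain genes, 13 of 14 passed the filter in Kyse30. Under EGFhigh at 6 h, where 2.55% of all genes were called, 1 was called as higher, ARID3B, and 1 as lower, ARID4A, a chromatin-binding protein (log2FC of -1.10, adjusted p = 0.012), and the median log2FC was -0.40 against -0.05 over all genes. Under EGFlow, ARID3B was the only one called (1.5% of all genes). Under EGFhigh at 72 h (6.2% of all genes), ARID3B was joined by JARID2, a subunit of a polycomb complex (log2FC of 1.04, adjusted p = 0.0038), as higher and by ARID5B (-0.9995, adjusted p = 0.031) as lower. In FaDu, where 13 were tested, ARID3B was the only ARID gene called under either EGF dose (3.45% of all genes for EGFlow and 3.06% for EGFhigh), and under EpEX (3.5% of all genes) the histone demethylase KDM5B (1.03, adjusted p = 0.035) and JARID2 (0.75, adjusted p = 0.030) were called as higher with it. ARID3B itself is a member of this list and was chosen on EpEX in Kyse30.

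Among 22 A-kinase anchoring proteins and protein kinase A subunits, 17 passed the filter in Kyse30 and 18 in FaDu. Under EGFhigh at 6 h in Kyse30, 3 were called as higher and 1 as lower, where 2.55% of all genes were called. These were AKAP12, AKAP13, another anchoring scaffold (log2FC of 0.89, adjusted p = 0.029), EZR, which encodes ezrin, a linker of actin to the membrane (0.82, adjusted p = 0.018), and AKAP9, a scaffold of the Golgi and centrosome, as lower (-0.91, adjusted p = 0.017). Under EGFlow (1.5% of all genes), 2 were higher (AKAP12 and EZR, 0.76) and 1 lower (AKAP9, -0.90). The list median was -0.04 under EGFhigh and 0.03 under EGFlow. In FaDu, AKAP12, EZR, and AKAP13 were the 3 called in each of EGFlow, EGFhigh, and EpEX at 6 h (3.45%, 3.06%, and 3.5% of all genes), with a log2FC of 1.35 to 1.41 for EZR and 1.28 to 1.31 for AKAP13. At 72 h under EGFhigh in Kyse30 (6.2% of all genes), AKAP12 (1.73), AKAP13 (0.85), and PRKAR2A, a regulatory subunit of protein kinase A (0.70), were called as higher and AKAP9 (-1.05) as lower. With EpEX added (3.58% of all genes), AKAP12 and PRKAR2A (-0.73) were called as lower and AKAP9 (1.03) as higher than under EGFhigh alone.

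Of 33 actin nucleators and SPIRE partners, 29 passed the filter in Kyse30 and 28 in FaDu. Under either EGF dose at 6 h in Kyse30, 2 were called, SPIRE1 and the formin INF2 (log2FC of 1.25 for EGFlow and 1.33 for EGFhigh), where 1.5% and 2.55% of all genes were called. In FaDu at 6 h, COBL, another actin nucleator (2.51 for EGFlow, 2.37 for EGFhigh, and 2.20 for EpEX), and the formin DIAPH1 (0.83, 0.84, and 0.85) were called in all 3 comparisons, and SPIRE1 in those of EGFhigh and EpEX, beside 3.45%, 3.06%, and 3.5% of all genes. Under EGFhigh at 72 h in Kyse30, SPIRE1 was not called, while 5 genes of the list were called as higher and 2 as lower, where 6.2% of all genes were called. The largest were the formin FHOD1 (1.59, adjusted p = 0.012), WASF1, an activator of the Arp2/3 complex (-1.50, adjusted p = 0.032), and the formin DIAPH3 (-1.32, adjusted p = 0.016). The list median was 0.28 there, against -0.03 over all genes.

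EGFR and ERK response genes were set beside them in the same comparisons. All 25 passed the filter in both lines. In Kyse30 at 6 h, 1 was called as higher under EGFlow (PHLDA2, log2FC of 1.84) and 4 under EGFhigh, led by the EGFR ligands HBEGF (2.43) and AREG (2.16) and by PHLDA2 (2.12), and EGR1 was called as lower under both (-1.20 and -1.19). Of all genes, 1.5% and 2.55% were called. In FaDu at 6 h, 10 were called as higher in each of EGFlow, EGFhigh, and EpEX, led by the EGFR ligands EREG (4.39, 4.38, and 4.42), AREG (3.55, 3.49, and 4.54), and HBEGF (3.47, 3.16, and 3.74), and FOS was called as lower under EGFlow (-2.08), where 3.45%, 3.06%, and 3.5% of all genes were called. The list median was 1.08, 1.21, and 0.90 in FaDu and 0.32 and 0.55 for EGFlow and EGFhigh in Kyse30. In EpEX against Fc in Kyse30 at 6 h, none of the 25 was called, beside 4 genes (0.0261%) of all tested.

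**Figure D4:**
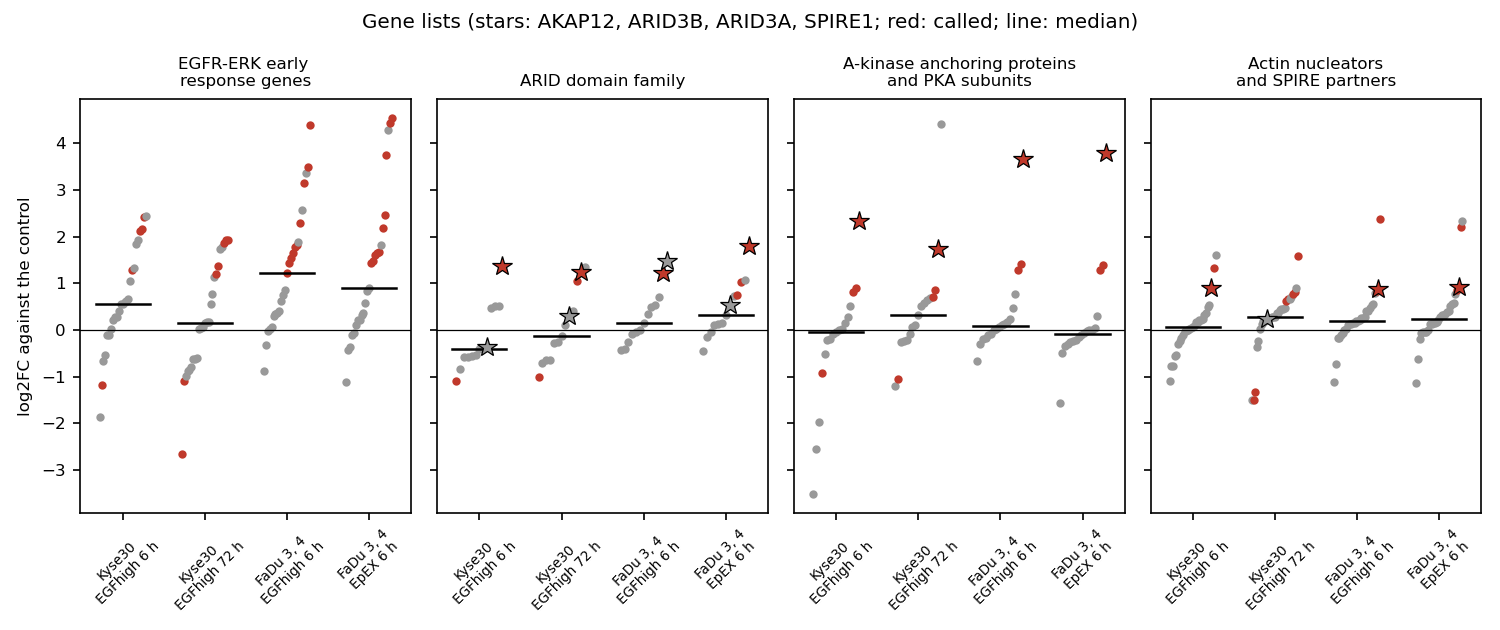
Log2FC of every tested gene of the 4 lists in the comparisons named under the axis. Red points were called, grey points were not, stars mark AKAP12, ARID3B, ARID3A, and SPIRE1, and black lines are list medians. AKAP12 has the largest log2FC of its list in the 3 comparisons at 6 h (2.34, 3.66, and 3.78), and at 72 h (1.73) 1 gene that was not called lies above it.

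The pattern of each gene over the 13 Kyse30 conditions was compared with those of 10242 genes with a mean of at least 5 CPM, by Pearson's r of mean log2 CPM. These r values share the same 43 libraries and controls and are a description. The conditions include EpEX and Fc at 6 h, whose comparison chose 3 of the genes, and this ranking was not recomputed without them. The genes most like AKAP12 were SDC4, a cell surface proteoglycan (r = 0.972), CDCP1, a transmembrane glycoprotein (r = 0.967), and ZYX, which encodes zyxin of focal adhesions (r = 0.966). Those most like ARID3B were PPAN (r = 0.969), KLHL21 (r = 0.967), and the death receptor TNFRSF10A (r = 0.966). ARID3B and these 3 genes all had their lowest condition mean under Fc at 6 h. Those most like SPIRE1 were AGO2, which carries microRNAs (r = 0.967), GLIPR1 (r = 0.926), and NDUFAF4 (r = 0.924). ARID3A was most like PJA2 (r = 0.945), RGL2 (r = 0.945), and FAM172A (r = 0.939). Between its lowest and highest condition mean AKAP12 differed 7.58-fold (14.7 to 111 CPM), while SDC4 differed 2.32-fold (165 to 382 CPM), CDCP1 2.58-fold (126 to 324 CPM), and ZYX 4.14-fold (46.5 to 192 CPM).

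**Figure D5:**
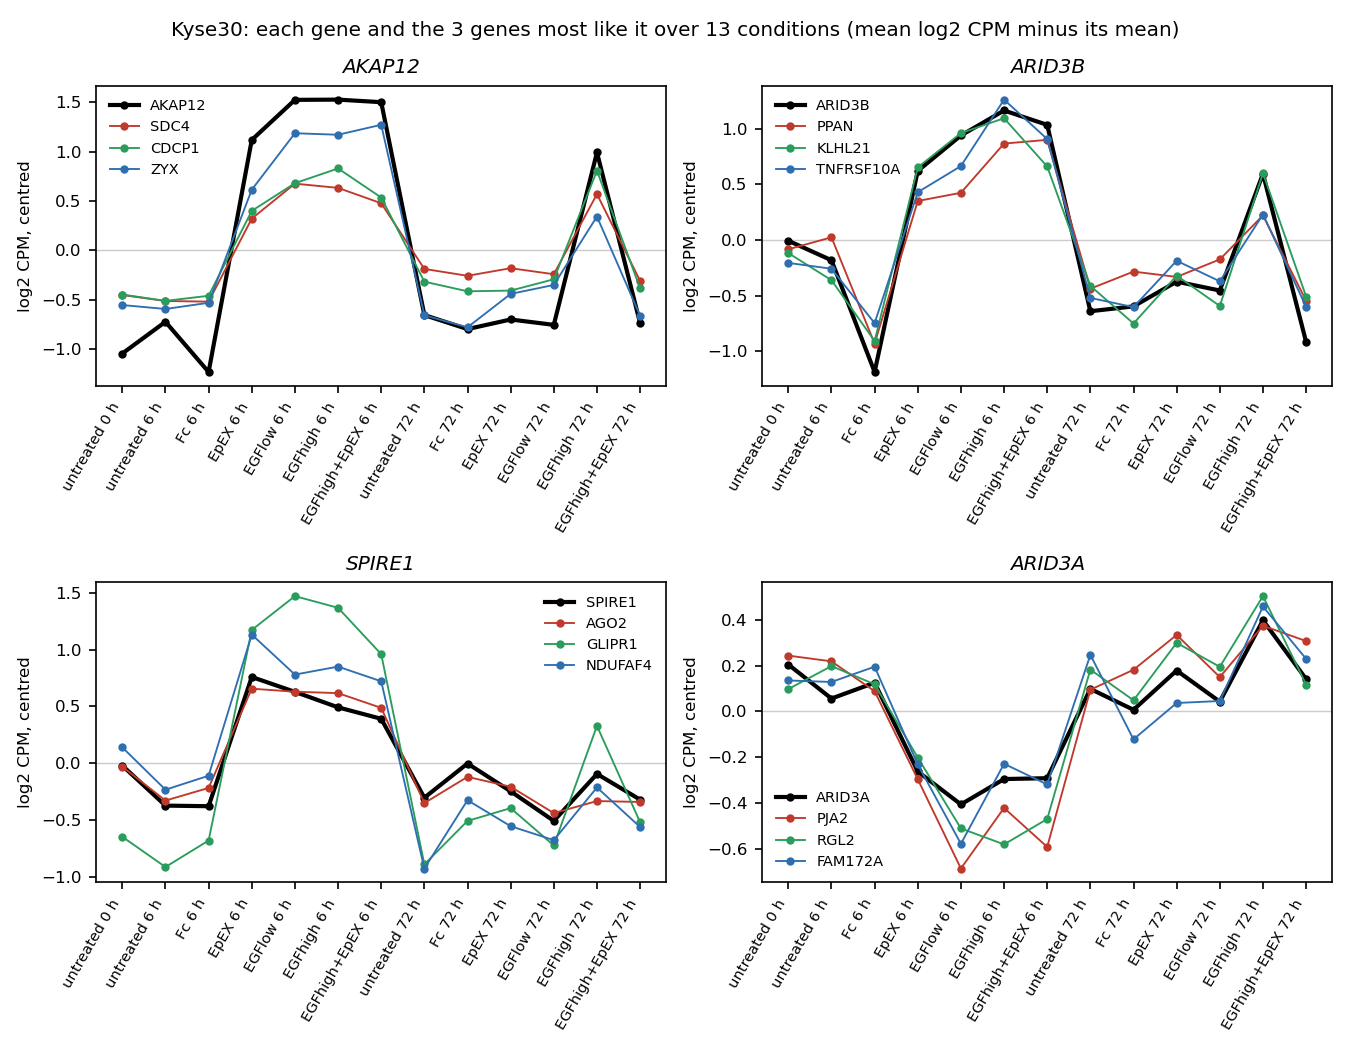
Mean log2 CPM of each of the 4 genes (black) and of the 3 genes most like it (colours) over the 13 Kyse30 conditions, each centred on its own mean. The AKAP12, ARID3B, and SPIRE1 groups are high in the 4 treatments at 6 h, and the ARID3A group is low there. AKAP12 and ARID3B are also high under EGFhigh at 72 h. Before centring, their means there were 6.10 and 5.12, against 6.23 and 5.15 under EpEX at 6 h.

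Among the 4 genes, r over the 13 conditions was 0.93 for AKAP12 and ARID3B, 0.84 for AKAP12 and SPIRE1, and 0.82 for ARID3B and SPIRE1. It was lower over the 43 single libraries (0.71, 0.77, and 0.72). These conditions include EpEX and Fc at 6 h, by which 3 of the genes were chosen, so part of the likeness is set by that choice. Over the 11 other conditions, a setting added after the data were seen, r was 0.93, 0.83, and 0.85, and over their 37 libraries it was 0.71, 0.78, and 0.74. ARID3A ran against the others, with r of -0.67 to AKAP12, -0.62 to ARID3B, and -0.79 to SPIRE1 over the conditions and -0.39, -0.37, and -0.49 over libraries. Without EpEX and Fc at 6 h these values were -0.63, -0.59, and -0.77 over conditions and -0.38, -0.34, and -0.47 over libraries. Its condition means were lowest in the 4 treatments at 6 h (75.0 CPM under EGFlow to 84.1 CPM under EpEX) and highest under EGFhigh at 72 h (131 CPM). With library depth (log2 total count), r over the 43 libraries was between -0.07 and 0.11 for the 4 genes.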

How the data were processed

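The authors deposited raw counts per gene of QuantSeq 3′ FWD libraries, made with STAR and HTSeq on GRCh38 per the submitters' processing notes (versions and strand setting not given in the sources used here). EGF doses come from the labels, and that of EGFhigh + EpEX from the study's text. Rows that name no gene were left out of library sizes. Reads on no gene or ambiguous between genes were 6.23 to 16.1% in Kyse30 and 6.52 to 10.8% in FaDu replicates 3 and 4. Reads not uniquely placed were 24.6 to 43.6% and 41.0 to 51.3%. Symbols were paired with 57754 of 58395 identifiers. No 2 libraries were identical.

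Counts were scaled by TMM, filtered with filterByExpr (minimum count 10, total 15), and tested with the quasi-likelihood F test of edgeR 4.0.16 (R 4.3.3) with Benjamini-Hochberg adjustment over all genes, in 1 fit of 43 Kyse30 libraries, 1 of 20 FaDu libraries, and 1 of both for differences between lines. All adjusted p are from this test unless DESeq2 (1.42.0) is named. CPM were computed from the counts with TMM factors. Scripts were tested on simulated data. Alternatives were DESeq2, RLE size factors, other filters, other samples or controls, a replicate block, and 1 library left out. The comparison of EGFhigh + EpEX with untreated cells at 6 h under these alternatives was added after the data were seen. The members and lists were chosen with earlier results of these data known. Named genes were the 4 genes, called genes of the lists with the largest changes, and the 3 genes most like each. FaDu replicates 1 and 2 were left out of the main comparisons.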

Additional observations from a re-analysis of the deposited data

Results flagged for a closer look

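SPIRE1 under EGFlow at 72 h in Kyse30 had 1 library away from the other 3. Its values were 44.9, 58.0, 58.4, and 58.8 CPM, and the gap of the lowest to the next was 0.943 of the whole range. This was tested in 16 groups of 4 libraries, of which chance flags about 1 in 20.

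FaDu replicates 1 and 2 were left out of the main FaDu comparisons. Among 16 comparisons of both libraries with their controls, the treated libraries lay wholly above in 2, wholly below in 4, and overlapped in 10. The share of all genes was not computed for replicates 1 and 2, so these counts are no result about the 4 genes. In replicates 3 and 4, also with 2 libraries a group, 19.6 to 20.7% of all genes lay wholly above under EGFlow, EGFhigh, or EpEX at 6 h. Wholly below lay 20.1 to 22.1%. SPIRE1 at 72 h was 53.2 and 167 CPM under EGFhigh and 26.7 and 51.8 CPM in untreated cells, so that the lowest treated library was 1.03 times the highest control. ARID3A at 6 h was 34.0 and 50.4 CPM under EGFhigh and 11.2 and 16.8 CPM in untreated cells, a ratio of 2.02. The 4 below were AKAP12 under EGFhigh + EpEX at 6 h (1.63 and 1.82 CPM against 2.45 and 9.69 under Fc) and under EGFlow at 72 h (11.6 and 15.7 against 17.5 and 50.2), ARID3B under EGFlow at 72 h (3.51 and 5.52 against 6.46 and 11.8), and ARID3A under EGFhigh at 72 h (13.8 and 21.2 against 36.5 and 47.5). None was tested.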

How the results depend on the processing

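The number of the 4 genes called kept within 1.5 times its main value in 144 recomputations by other settings and not in 16. It was 0 with all 41 FaDu libraries for EGFlow, EGFhigh, and EpEX at 6 h and EGFhigh + EpEX at 72 h, and 0 for the last with a mean of at least 5 CPM. EGFhigh against EGFlow at 72 h in Kyse30 gave 2 with DESeq2, a mean of at least 5 CPM, no filter, or the replicate block. The EGFlow response (72 h against 6 h) gave 2 with DESeq2 or the block and 1 without a filter. The line difference under EGFhigh gave 1 with DESeq2. EpEX against Fc at 6 h gave 1 with only the groups compared and 1 with untreated cells as control. That comparison chose the genes, so these counts describe the choice and are no test. EGFhigh + EpEX against untreated at 6 h gave 1 with only the groups compared. The number of all genes called also moved with the setting, as given below for some comparisons. It is not printed beside each count in this paragraph and the next, so these counts are no result about the 4 genes. The cause of the changes was not tested.

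With 1 library left out, the number ranged in FaDu from 1 to 2 for EGFhigh, 1 to 2 for EGFlow, and 0 to 0 for EGFhigh + EpEX at 72 h. In Kyse30 it ranged from 1 to 3 for EGFlow and EGFhigh at 6 h and 0 to 3 for EGFhigh + EpEX against untreated. It ranged from 0 to 2 for EGFhigh at 72 h and 0 to 1 for the EGFlow response. At 72 h, EGFhigh against EGFlow and EGFhigh + EpEX against EGFhigh gave 1 to 2. EpEX against Fc at 6 h, which chose the genes, gave 0 to 2, a description of the choice only.

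Signs turned only in differences that were not called. The log2FC of AKAP12 for EGFhigh against EGFlow at 6 h was 0.00204 (DESeq2), 0.00111 (mean of at least 5 CPM), 0.000994 (block), and 0.00572 (RLE), and -0.50 to 0.51 with 1 library left out (SPIRE1 -0.22 to 0.038). For EGFlow at 72 h AKAP12 had -0.00746 (DESeq2), -0.00793 (only the groups compared), -0.29 (block), and -0.00311 (RLE), and -0.44 to 0.20 with 1 left out (ARID3B -0.059 to 0.37). For EpEX at 72 h AKAP12 had -0.32 (block) and -0.021 (untreated as control), and -0.25 to 0.40 with 1 left out (ARID3B -0.014 to 0.45), and SPIRE1 had 0.059 with untreated as control. For EGFhigh + EpEX against EGFhigh at 6 h the ranges were -0.36 to 0.32 for AKAP12 and -0.34 to 0.090 for ARID3B.

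Over all genes, EGFlow at 6 h in Kyse30 called 230 genes, against 423 with DESeq2, 399 without a filter, 359 with only the groups compared, 417 with the block, and 776 with untreated and Fc together. EGFhigh at 6 h called 391, against 701 (DESeq2), 636 (block), and 1105 (both controls), and EGFhigh at 72 h 951, against 502 (only the groups compared) and 1628 (both controls). Same-numbered libraries had a mean correlation of deviations of 0.063 in Kyse30 (64 of 217 pairs above 0.1) and 0.071 in FaDu (14 of 42). Differently numbered ones had -0.022 and -0.071. The numbers were not taken as pairs in the main fits, and a replicate block was run as an alternative. AKAP12 at 6 h followed the numbers in part. Replicate 4 was highest in untreated and EGF-treated Kyse30 cells but lowest under Fc, and replicate 3 was the higher in FaDu. Depth limits ARID3A in FaDu most, with as few as 24 counts.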
